A study of Homo sapiens with 4 samples.

Results

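The 10 histone lysine demethylase genes KDM1A, KDM2A, KDM2B, KDM3A, KDM3B, KDM4A, KDM4B, KDM4C, KDM5B and KDM6B were followed by RNA-seq in BE(2)C, a human neuroblastoma cell line in which MYCN is amplified. They were chosen by gene symbol, and all 10 were found among the 26364 genes listed and among the 11411 genes tested. For control (Ctrl), the cells were transfected with siRNA that has no target, and for MYCN knockdown (MYCN KD) with siRNA against MYCN. Both used Lipofectamine for 6 h, and RNA was taken on the following day. The labels give the genotype as wild type, and the siRNA concentration in them differs from that in the study's methods. Each condition had 2 samples, which the study calls biological replicates. Nothing in the labels says that they came from separate cultures, so p-values measure only the spread between these samples. One siRNA product was used against MYCN, so effects of MYCN loss and off-target effects of that siRNA cannot be told apart. The deposited values are RPKM, which scales the reads of a gene by its length and by the size of the library, computed from reads that had already been adjusted to remove unwanted variation.

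Histone lysine demethylases remove methyl groups from histone tails and so counteract the methyltransferases that place them. KDM1A (LSD1) is a flavin-dependent amine oxidase, whereas the other members carry a Jumonji C (JmjC) domain that needs iron and 2-oxoglutarate. KDM1A acts on mono- and dimethylated H3K4 as part of the CoREST repressor complex, and it is studied as a drug target in neuroblastoma, where it has been linked to the undifferentiated state. KDM3A and KDM4B have been described as partners or targets of MYCN in this tumor.

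MYCN mRNA fell from 1068 and 1073 RPKM in the control samples to 720.2 and 718.0 RPKM after knockdown (log2 fold change -0.57, adjusted p = 0.00361 in limma). Adjusted p-values throughout are limma's after the Benjamini-Hochberg correction, and log2 fold changes are on the log2(RPKM + 1) scale. The read totals behind the RPKM values, worked back from the adjusted values, were 29055819 to 34142988 per sample. All 12 noradrenergic neuroblast markers examined were detected, and 7 rose and 2 fell. Of all tested genes, 25.3% were higher and 22.8% lower. The summed level of the 12 neuroblast markers was 3774 to 4068 RPKM in control and 5321 to 5721 RPKM in MYCN knockdown. Of 13 markers of mesenchymal or blood cells, PRRX1, TWIST2, HBB and HBA1 were listed at 0 in every sample and PTPRC reached at most 0.00464 RPKM. The summed level of these 13 markers was 27.2 to 28.5 RPKM in control and 39.9 to 40.5 RPKM in MYCN knockdown. In all samples, 8 of them were under 1 RPKM. Of the 5 tested, 4 rose (CD68, COL1A1, DCN and PDGFRB) and LUM did not pass. Across the samples, PDGFRB was at 10.1 to 11.8 RPKM, LUM at 6.64 to 8.19, DCN at 4.58 to 9.33 and CD68 at 3.45 to 11.5. The part of these marker levels in the results for the demethylases was not tested.

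The promoter sequences are given first, because MYCN binds DNA with its partner MAX at the E-box CACGTG, and the members differed in whether they hold one. RefSeq (GRCh38.p14) gave a window of 250 bases before and 50 bases after the annotated start for all 10 genes, 16 windows in all, since 4 genes have more than 1 start. The windows were searched on both strands for CACGTG, which reads the same on both, and for 2 variants. One variant is CACGCG. The other variant is CATGTG. No hit of one motif overlapped a hit of another. CACGTG was found in the window of KDM4B, with its first base 241 bases before the start, and at a pair of places in the window of KDM4C, 63 and 31 bases before the start. CACGCG or its reverse complement was found in a single window each of 4 genes, namely KDM1A, KDM2A, KDM4A and KDM6B, and CATGTG in 0 genes. Over all 35116 RefSeq promoter windows, 7.26% held CACGTG, 11.4% held CACGCG and 11.1% held CATGTG. These shares are per window, whereas the counts of members are per gene. The windows of 5 genes are shown for their contrast: KDM1A and KDM2A fell after MYCN knockdown, KDM5B rose most among the members and holds none of the motifs, and KDM4B and KDM4C hold the E-box. They lie at chr1:23019218-23019517 (plus strand, KDM1A), chr11:67119013-67119312 (plus strand, the first of 2 windows of KDM2A), chr1:202808372-202808671 (minus strand, KDM5B), chr19:4968863-4969162 (plus strand, KDM4B) and chr9:6757723-6758022 (plus strand, KDM4C). Each is written 5′ to 3′ on the strand of the gene, with motif matches in capitals.
KDM1A: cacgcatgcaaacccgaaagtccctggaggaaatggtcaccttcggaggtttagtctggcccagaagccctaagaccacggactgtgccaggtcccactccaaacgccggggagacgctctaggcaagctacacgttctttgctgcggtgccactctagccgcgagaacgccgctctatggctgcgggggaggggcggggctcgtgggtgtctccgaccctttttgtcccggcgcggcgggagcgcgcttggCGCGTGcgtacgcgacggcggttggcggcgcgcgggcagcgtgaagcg
KDM2A: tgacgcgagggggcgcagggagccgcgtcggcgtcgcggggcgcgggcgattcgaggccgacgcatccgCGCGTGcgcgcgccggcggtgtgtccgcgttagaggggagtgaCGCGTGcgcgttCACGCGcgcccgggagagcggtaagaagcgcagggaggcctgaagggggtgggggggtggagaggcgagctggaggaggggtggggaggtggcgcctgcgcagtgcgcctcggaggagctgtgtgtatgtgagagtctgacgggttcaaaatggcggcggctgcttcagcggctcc
KDM5B: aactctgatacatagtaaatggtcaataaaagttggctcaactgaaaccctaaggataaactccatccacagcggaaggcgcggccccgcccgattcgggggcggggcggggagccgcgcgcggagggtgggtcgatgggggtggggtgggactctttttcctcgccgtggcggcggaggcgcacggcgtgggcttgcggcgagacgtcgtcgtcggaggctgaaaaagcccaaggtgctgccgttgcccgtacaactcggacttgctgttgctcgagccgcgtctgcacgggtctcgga
KDM4B: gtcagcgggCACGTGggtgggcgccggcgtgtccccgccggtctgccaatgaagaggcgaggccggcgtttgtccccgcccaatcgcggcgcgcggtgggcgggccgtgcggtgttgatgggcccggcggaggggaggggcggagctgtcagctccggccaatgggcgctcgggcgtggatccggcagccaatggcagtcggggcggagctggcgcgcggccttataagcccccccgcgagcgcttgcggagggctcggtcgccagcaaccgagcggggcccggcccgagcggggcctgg
KDM4C: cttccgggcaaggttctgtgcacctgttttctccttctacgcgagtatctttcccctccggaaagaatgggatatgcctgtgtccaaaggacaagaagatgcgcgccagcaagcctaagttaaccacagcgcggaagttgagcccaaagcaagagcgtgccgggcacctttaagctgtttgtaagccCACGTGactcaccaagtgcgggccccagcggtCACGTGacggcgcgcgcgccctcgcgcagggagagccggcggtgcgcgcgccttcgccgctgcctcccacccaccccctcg
Neither gene with the E-box in its window passed the test for a change after MYCN knockdown. Of the 5 genes that did pass, described below, 3 held CACGCG or its reverse complement and 2 held no motif. Both sets went in both directions. With CACGCG, KDM1A and KDM2A fell and KDM4A rose, and without a motif, KDM2B fell and KDM5B rose. KDM6B also held CACGCG and did not pass. A match is a description of the letters and not a binding site, and windows without a match say nothing about binding elsewhere in the gene.

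Levels differed widely among the demethylases. In control cells, KDM1A was the most abundant at 76.3 ± 2.27 RPKM (SD, n = 2), followed by KDM2A at 36.4 ± 0.564 RPKM, and KDM4C was the least abundant at 2.65 ± 0.149 RPKM. KDM1A was expressed above 90.6% of the tested genes and KDM4C above 17.9%. The order in control was KDM1A, KDM2A, KDM3B, KDM2B, KDM4B, KDM6B, KDM4A, KDM5B, KDM3A and KDM4C, and neighbours in this order did not overlap except KDM3A and KDM4C. After MYCN knockdown the values of KDM4B, KDM6B, KDM5B and KDM4A overlapped from each gene to the next, with KDM5B now ranked above KDM4A.

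**Figure D1:**
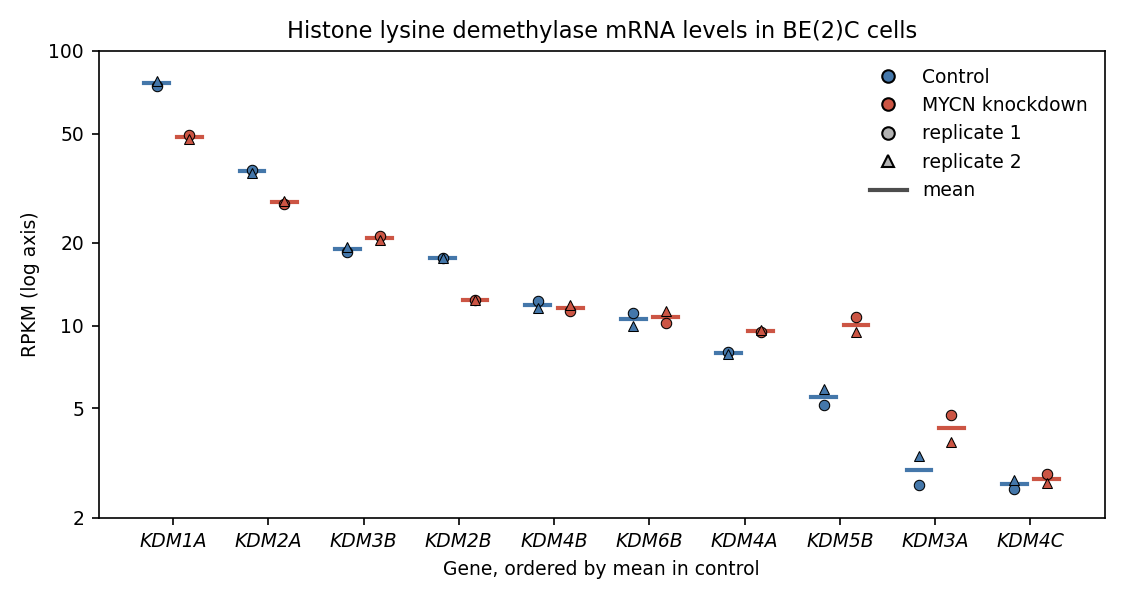
RPKM (log axis) of the 10 demethylase genes in each sample, ordered by their mean in control; circles are replicate 1, triangles replicate 2, and bars the mean of each condition. KDM1A, KDM2A and KDM2B lie lower and KDM5B higher in MYCN knockdown (red) than in control (blue), while KDM4B, KDM4C and KDM6B overlap.

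Upon MYCN knockdown, KDM1A, KDM2A and KDM2B fell, KDM4A and KDM5B rose, and the other 5 members did not pass the test. Thus 5 of 10 members were called at an adjusted p under 0.05 in limma, against 48.1% of all 11411 tested genes, so the share among the demethylases was close to the background. By direction, 3 of 10 were lower against 22.8% of tested genes, and 2 of 10 were higher against 25.3%. Conditions did not overlap for 7 of 10 members, against 76.2% of tested genes. Both knockdown values were above both control values for 4 members (40.4% of tested genes) and below for 3 (35.8%). The median log2 fold change of the members was 0.04, and that of all tested genes was 0.03. In bulk RNA, a lower level in every cell and fewer cells with that RNA cannot be told apart.

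KDM1A showed the largest fall among the members. It was at 74.7 and 77.9 RPKM in control and at 49.5 and 47.6 RPKM in MYCN knockdown. Both knockdown samples lay well below both control samples. Its mean fell by 36.4%, a log2 fold change of -0.64 (SE 0.044, adjusted p = 0.00452 in limma), and 6.03% of tested genes had a lower value of this change. The gene lies on chromosome 1 of GRCh37 from 23345936 to 23410182 (plus strand, 21 exons in its canonical transcript). KDM1A made up 39.4% and 40.5% of the summed RPKM of the 10 members in control, and 30.9% and 30.2% in MYCN knockdown. The sum of the other members was 114.3 and 114.7 RPKM in control and 110.2 and 110.7 RPKM in MYCN knockdown.

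KDM5B (JARID1B), a JmjC enzyme that removes di- and trimethylation of H3K4, moved in the opposite direction to KDM1A. It was at 5.16 and 5.87 RPKM in control and at 10.7 and 9.45 RPKM in MYCN knockdown. The lowest knockdown value was above the highest control value. The mean was 1.83 times that of control, with a log2 fold change of 0.77 (SE 0.095, adjusted p = 0.0107 in limma), above that of 95.7% of tested genes. KDM5B lies on chromosome 1 from 202693623 to 202777615 (minus strand, 27 exons). The adjusted reads behind its values numbered 1124 and 1199 in control and 1988 and 1867 in MYCN knockdown. Of the other H3K4 demethylases, KDM5C had 41.9 and 40.7 RPKM in control and 38.0 and 39.1 RPKM in MYCN knockdown, and did not pass (log2 fold change -0.10, adjusted p = 0.123 in limma). KDM5A (log2 fold change 0.11) and KDM1B, the paralog of KDM1A (-0.07), overlapped between conditions and did not pass either.

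KDM2A and KDM2B, paralogs with a CXXC zinc finger that binds unmethylated CpG islands, remove mono- and dimethylation of H3K36, and both fell. KDM2A was at 36.78 and 35.98 RPKM in control and at 27.8 and 28.4 RPKM in MYCN knockdown. The difference was -0.36 on the log2 scale (SE 0.037, adjusted p = 0.00765 in limma). KDM2B, which also recruits a variant Polycomb repressive complex 1, was at 17.63 and 17.60 RPKM in control and at 12.41 and 12.45 RPKM in MYCN knockdown. The log2 difference here was -0.47 (SE 0.036, adjusted p = 0.00510 in limma). For both genes the conditions were separated by more than the gap between replicates. The gap between the control replicates of KDM2B was 0.0306 RPKM. Counting error, with the adjusted reads taken as raw counts, would give that gap a standard error of 0.431 RPKM. The replicates lay closer together than that, and the part of the authors' adjustment in this was not tested. KDM2A lies on chromosome 11 from 66886734 to 67025553 (plus strand, 21 exons), and KDM2B on chromosome 12 from 121866899 to 122018928 (minus strand, 23 exons). The end of KDM2B overlaps RNF34 on the opposite strand, and RNF34 rose from 39.5 and 40.6 RPKM to 51.8 and 50.4 RPKM. Whether the counting used strand is not given in the sources used here.

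**Figure D2:**
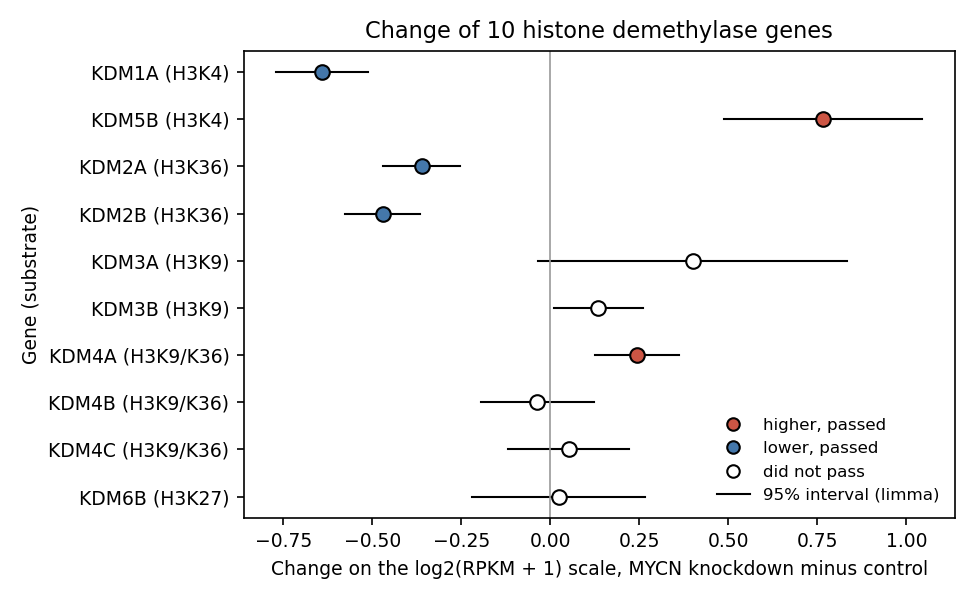
Change of each demethylase gene on the log2(RPKM + 1) scale, MYCN knockdown minus control, with unadjusted 95% intervals in limma; filled points passed an adjusted p of 0.05. Of the 10 genes, 3 lie below 0 and 2 above 0 as filled points, and the interval of KDM3B lies just above 0 although its adjusted p did not pass.

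KDM3A and KDM3B remove mono- and dimethylation of H3K9, and KDM3A is a known hypoxia-induced gene. KDM3A was at 2.63 and 3.34 RPKM in control and at 4.75 and 3.77 RPKM in MYCN knockdown. Both knockdown values were above both control values, but the replicates lay far apart. Its log2 fold change of 0.40 did not pass (95% interval -0.03 to 0.83, adjusted p = 0.103 in limma). It passed when replicate 2 of either condition was left out, at 0.53 and 0.54 (adjusted p = 0.00136 and 0.00134 in limma), and did not when replicate 1 of either was. KDM3B was at 18.6 and 19.3 RPKM in control and at 21.2 and 20.5 RPKM in MYCN knockdown. The conditions did not overlap, and the log2 fold change of 0.13 (95% interval 0.01 to 0.26) did not pass (adjusted p = 0.0755 in limma). KDM3A lies on chromosome 2 from 86667770 to 86719839 (plus strand, 26 exons) and KDM3B on chromosome 5 from 137688374 to 137772717 (plus strand, 24 exons).

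The KDM4 genes encode JmjC enzymes with activity on trimethylated H3K9 and H3K36, and only KDM4A of the 3 members passed the test. KDM4A was at 8.02 and 7.86 RPKM in control and at 9.48 and 9.68 RPKM in MYCN knockdown. Its values did not overlap between conditions, with a log2 fold change of 0.24 (SE 0.040, adjusted p = 0.0190 in limma). This call rests on the full set of samples, since without any 1 of them the adjusted p was 0.147 to 0.222, and with the replicate number as a block it was 0.279. KDM4B was at 12.3 and 11.6 RPKM in control and at 11.3 and 11.9 RPKM in MYCN knockdown. Its conditions overlapped, with a log2 fold change of -0.04 (95% interval -0.20 to 0.12, adjusted p = 0.612 in limma). KDM4C was at 2.54 and 2.75 RPKM in control and at 2.88 and 2.67 RPKM in MYCN knockdown. It overlapped as well, with a log2 fold change of 0.05 (95% interval -0.12 to 0.22, adjusted p = 0.499 in limma). Whether the change of KDM4A differs from those of KDM4B and KDM4C was not tested. KDM4A lies on chromosome 1 from 44115820 to 44171189, KDM4B on chromosome 19 from 4969124 to 5153609 and KDM4C on chromosome 9 from 6720863 to 7175648, all on the plus strand. The antisense gene KDM4A-AS1 was listed at no more than 0.375 RPKM. Reads that match more than 1 KDM4 paralog could be counted differently by the authors' steps.

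KDM6B (JMJD3), an inducible demethylase of di- and trimethylated H3K27, was at 11.1 and 9.99 RPKM in control and at 10.2 and 11.3 RPKM in MYCN knockdown. The conditions covered nearly the same range. Its log2 fold change was 0.02 (95% interval -0.22 to 0.27, adjusted p = 0.830 in limma). KDM6B lies on chromosome 17 from 7737535 to 7758114 (plus strand, 24 exons). KDM6A, also an H3K27 demethylase, was at 4.67 and 5.43 RPKM in control and at 6.96 and 6.02 RPKM in MYCN knockdown. Both knockdown values were above both control values, and the log2 fold change of 0.31 did not pass (adjusted p = 0.0869 in limma). Without replicate 2 of either condition it was 0.40 and passed (adjusted p = 0.0201 and 0.0254 in limma).

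**Figure D3:**
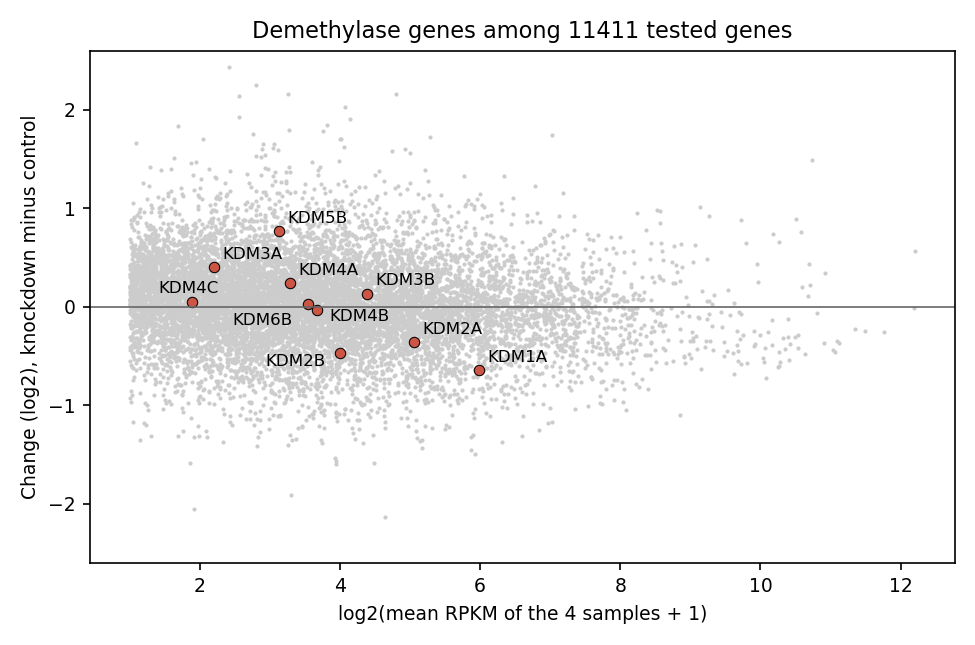
Each grey point is one of 11411 tested genes, with the log2 of its mean RPKM + 1 on the horizontal axis and its change after MYCN knockdown on the vertical axis; red points are the 10 demethylases. They spread from KDM1A at -0.64 to KDM5B at 0.77 and stay within the cloud of all genes.

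Over the tested genes, the deviation of replicate 1 from its group mean in control and in MYCN knockdown had a correlation of -0.985, so the 2 conditions do not give independent estimates of the replicate spread. KDM6B shows it plainly, with replicate 1 the higher sample in control and the lower in MYCN knockdown by about the same amount (1.12 and 1.11 RPKM). Adjusted reads behind single values of the members ranged from 441 for KDM3A to 9685 for KDM2A. Taken as raw counts, they would have a counting error of 1.02% to 4.76%. The replicate gap was under 1 counting standard error in both conditions for KDM2B and KDM4A, and reached 4.10 counting standard errors for KDM3A in MYCN knockdown. A two-sided exact permutation of 2 samples against 2 cannot give a p below 0.333, so single genes were tested only through limma.

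Of 15 further demethylase genes, 14 were tested, with 1 higher and 2 lower, against 25.3% and 22.8% of all tested genes. Their median log2 fold change was -0.04. The falls were in RIOX1 (NO66) and RIOX2 (MINA53), JmjC proteins of the nucleolus that also hydroxylate ribosomal proteins. RIOX1 was at 17.1 and 18.2 RPKM in control and at 12.0 and 11.3 RPKM in MYCN knockdown (log2 fold change -0.56, adjusted p = 0.00765 in limma). RIOX2 was at 5.87 and 6.77 RPKM in control and at 4.43 and 3.87 RPKM in MYCN knockdown (log2 fold change -0.51, adjusted p = 0.0260 in limma). KDM4D, an H3K9 demethylase of the KDM4 family, rose from low levels of 1.21 and 1.27 RPKM to 1.76 and 1.67 RPKM (log2 fold change 0.28, adjusted p = 0.0157 in limma). The call of KDM4D was lost without replicate 1 or 2 of control or replicate 1 of MYCN knockdown, at adjusted p from 0.0665 to 0.112 in limma. The others, JMJD1C, HR, PHF2, PHF8, KDM7A, KDM8 and JMJD6 with the KDM1B, KDM5A, KDM5C and KDM6A genes above, did not pass, with log2 fold changes from -0.19 to 0.31. KDM4E reached at most 0.0147 RPKM and was not tested.

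The methyltransferases that place the same marks were compared as a list of 23 genes. Of the 21 tested, 2 were higher and 5 were lower, against 25.3% and 22.8% of all tested genes, with a median log2 fold change of -0.07. Falls were largest in SUV39H2, an H3K9 methyltransferase (8.72 and 9.40 RPKM in control, 5.54 and 5.17 RPKM in MYCN knockdown, log2 fold change -0.66), and EZH2, the H3K27 methyltransferase of Polycomb repressive complex 2 (29.6 and 32.6 RPKM against 22.6 and 20.6 RPKM, log2 fold change -0.51). KMT2C, an H3K4 methyltransferase, rose from 6.35 and 7.28 RPKM to 11.2 and 9.80 RPKM (log2 fold change 0.56). The other calls, named after their values were seen, were falls of SETD1A, EHMT1 and NSD1 and a rise of PRDM2. Without any 1 sample EHMT1 and PRDM2 no longer passed (adjusted p from 0.132 to 0.262 in limma), NSD1 did not without replicate 2 of either condition (adjusted p = 0.0748 and 0.0835 in limma), and SETD1A did not without replicate 1 of MYCN knockdown (adjusted p = 0.0521 in limma). NSD1 was also lost after rescaling to the same total (adjusted p = 0.0541 in limma), SETD1A without the filter on low values (0.0604), and EHMT1, NSD1 and PRDM2 with the replicate block (0.295, 0.0865 and 0.290). For counts by substrate, KDM4A, KDM4B and KDM4C were placed under H3K9 only, although they also act on H3K36. JMJD1C, HR, PHF2, PHF8, KDM7A, KDM8, JMJD6, RIOX1 and RIOX2 were left out, although RIOX1 and RIOX2 fell. On this placement, 1 of 5 tested H3K4 demethylases was higher and 1 lower, as were 1 and 1 of 7 H3K4 methyltransferases. For H3K9, 2 of 6 demethylases were higher and 0 lower, and of 5 methyltransferases 1 was higher and 2 were lower. The 2 higher H3K9 demethylases were KDM4A and KDM4D, and neither passed with the replicate block (adjusted p = 0.279 and 0.164 in limma) or without replicate 1 or 2 of control or replicate 1 of MYCN knockdown. For H3K27, neither of the 2 demethylases placed there (KDM6A and KDM6B) passed and 1 of 2 methyltransferases was lower. For H3K36, the 2 demethylases placed there (KDM2A and KDM2B) and 1 of 6 methyltransferases were lower, whereas KDM4A, which also acts on H3K36, rose. These counts are descriptions of small lists, and no difference between them was tested. EHMT2 (at most 0.0122 RPKM) and SETDB2 were below the filter on low values, and whether such values mean absent RNA was not tested.

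**Figure D4:**
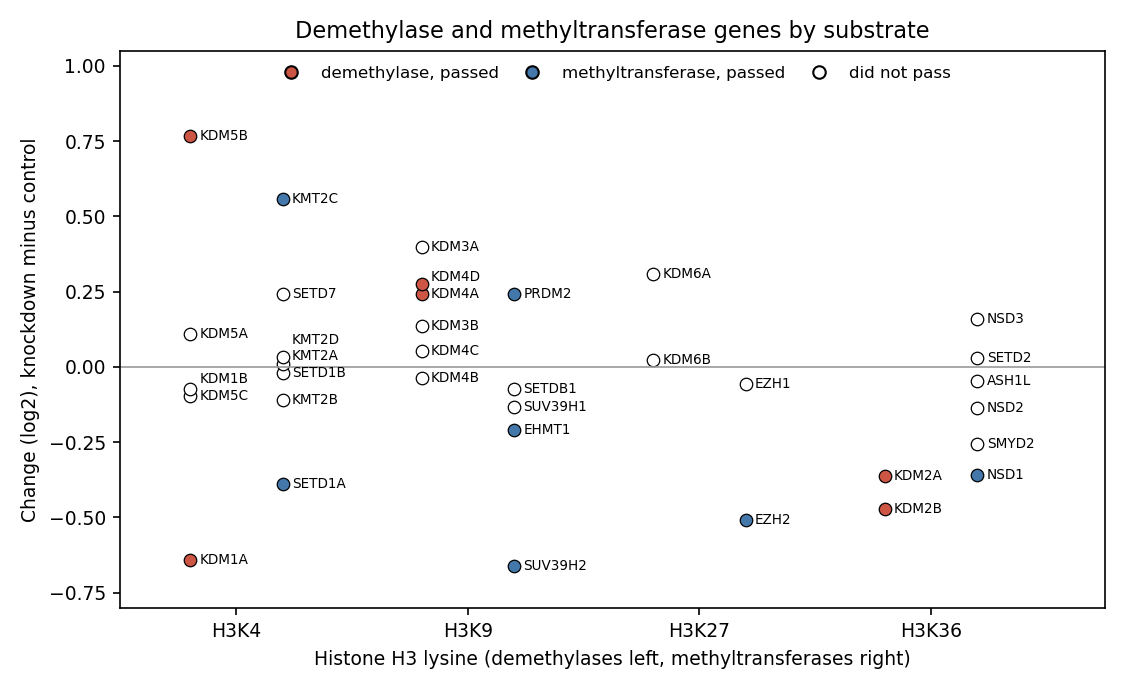
Change after MYCN knockdown (log2) of tested demethylase genes (left in each pair of columns) and methyltransferase genes (right), by the histone H3 lysine they act on; filled points passed an adjusted p of 0.05, and KDM4A, KDM4B and KDM4C are drawn under H3K9 although they also act on H3K36. KDM1A and KDM5B lie at opposite ends of H3K4, and both demethylases drawn under H3K36 lie below 0. Demethylases left out of the counts by substrate are not drawn.

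Partner genes of KDM1A and KDM2B moved unevenly. The list held 23 genes for members or partners of the CoREST complex and of the KDM2B-containing Polycomb complex, and 20 were tested. GFI1, INSM1 and SNAI1 were placed on the CoREST side as partners. Of these, 2 were higher and 5 lower, against 25.3% and 22.8% of all tested genes, and the median log2 fold change was -0.04. RCOR1, the scaffold that binds KDM1A to nucleosomes, was at 22.3 and 23.7 RPKM in control and at 22.7 and 21.4 RPKM in MYCN knockdown, overlapping between conditions (log2 fold change -0.06, adjusted p = 0.438 in limma). Of 12 tested genes on the CoREST side, SNAI1 among them, 3 were lower and 0 higher by limma. On the side of KDM2B, PCGF1, which defines the complex, overlapped at 30.8 and 28.8 RPKM against 28.5 and 30.5 RPKM (log2 fold change -0.01, adjusted p = 0.884 in limma). RYBP, which stimulates its ubiquitin ligase, rose from 17.3 and 20.4 RPKM to 39.7 and 33.8 RPKM (log2 fold change 0.93, adjusted p = 0.0129 in limma). BCORL1 rose from 2.90 and 2.74 RPKM to 4.39 and 4.64 RPKM (log2 fold change 0.53, adjusted p = 0.00704 in limma). Of 8 tested genes on the KDM2B side, 2 were higher and 2 lower. The falls, named after their values were seen, were SKP1 (log2 fold change -0.32, adjusted p = 0.0110 in limma) and USP7 (-0.28, adjusted p = 0.0248 in limma). RING1 (at most 0.0066 RPKM), GFI1 and INSM1 were below the filter on low values, and whether such values mean absent RNA was not tested.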

How the data were processed

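RNA-seq was available for 4 BE(2)C samples, 2 Ctrl and 2 MYCN KD, grouped by their labels. Per the study's methods and the submitters' processing notes, reads were mapped to hg19 with HISAT2 2.1.0 and counted over RefSeq genes with featureCounts, and DESeq2 and RUVSeq (which removes unwanted variation) were then applied. The authors deposited RPKM values made from those adjusted counts. The settings of RUVSeq, the RefSeq release and the use of strand are not given in the sources used here.

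The test was limma 3.58.1 (R 4.3.3; lmFit, then eBayes with a trend) on log2(RPKM + 1). It covered the 11411 genes whose mean RPKM was 1 or more, and p-values were corrected by Benjamini-Hochberg over all of them, with a threshold of 0.05. This scale understates the change of low genes. Whole reads were recovered from the RPKM values for 19908 of the 19908 genes above 0 (100.0%), with sample totals set from small RNA genes of known length, of which 92.5% to 93.1% came out whole within 0.02 reads. These are reads after the authors' adjustment and not raw counts. Counting errors and intervals from them treat them as raw counts and cover counting error only. The 10 members and the gene lists were chosen with earlier results of these data known. Genes named beyond the members were the demethylases outside them, up to 3 called genes of largest change per list, RCOR1, PCGF1 and EZH2, and those said in the text to be named after their values were seen. Some genes that this rule names are not reported here. Positions come from GENCODE release 44 lifted to GRCh37, the build of the files, and promoters from RefSeq on GRCh38.p14. The limma step was tried on simulated data with independent samples. That trial does not cover the opposed replicate deviations of these data, so it does not bear on the p-values here. Tables and plots were made in Python 3.11.15 with pandas 2.3.3 and matplotlib 3.10.9. Alternatives were another pseudocount, other filters, 2 scalings, eBayes without a trend, a replicate block, each sample left out, and limma voom on the recovered reads.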

Additional observations from a re-analysis of the deposited data

How the results depend on the processing

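MYCN, KDM1A, KDM2A, KDM2B and KDM5B passed in the same direction under all 12 alternatives other than the crossed pairing given below, and KDM3B, KDM4B and KDM6B under none of 12, nor KDM4C under any of 11. The log2 fold change of KDM4A was 0.24 with the replicate block (adjusted p = 0.279 in limma) and 0.23 to 0.26 with a sample left out, and that of KDM3A was 0.26 to 0.54 with a sample left out. Several genes that did not pass changed sign. KDM4B gave 0.0202 when samples were rescaled to the same total, and -0.0738 to 0.0017 with a sample left out. Quantile normalization gave -0.0501 for KDM4C and -0.0083 for KDM6B, and KDM6B gave -0.0463 to 0.0934 with a sample left out. RCOR1 gave 0.00056 after rescaling. PCGF1 gave 0.0473 after rescaling, 0.0123 with quantile normalization and -0.0592 to 0.0357 with a sample left out. The median of the members was -0.0062 when a mean RPKM of 5 was required, which removed KDM3A and KDM4C, 0.0876 after rescaling and -0.0292 with quantile normalization. Rescaling moved the median of all genes by 0.055 and quantile normalization by -0.031. Why these values moved was not tested. When a sample was left out, the lone sample of its condition was assumed to vary like the others.

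Same-numbered replicates deviated in opposite directions in the 2 conditions (correlation of deviations -0.985). These values had already been adjusted by the authors, so they cannot tell whether the replicate numbers paired the samples. With the replicate block, 2077 genes were higher and 1851 lower, with 1 member higher, 0 further demethylases higher, 1 methyltransferase higher and 3 lower, 1 partner lower and 1 of the 2-oxoglutarate enzymes higher. With the pairing crossed, chosen after seeing the data, 5910 of the 11411 tested genes were higher and 5262 lower, so nearly all passed. The crossed block takes up the opposed deviations of the replicates, so passing in it is no support for a change. All 10 members passed in it, 6 higher and 4 lower, including the 5 that did not pass in the main test. Higher and lower counts were 6 and 7 for the further demethylases and 7 and 14 for the methyltransferases. They were 7 and 12 for the partners and 4 and 8 for the 2-oxoglutarate enzymes. With a mean RPKM of 5 required, 1868 genes, 0 further demethylases and 1 partner were higher. Rescaling gave 3279 genes higher and 2122 lower, against 2890 and 2599 in the main test, with 2 further demethylases higher and 2 of the 2-oxoglutarate enzymes lower. Voom gave 3 further demethylases higher. With a sample left out, 1 to 2 members, 0 to 2 further demethylases, 1 to 2 methyltransferases and 0 to 1 of the 2-oxoglutarate enzymes were higher, and 3 to 5 partners were lower.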

Other observations

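The JmjC demethylases consume 2-oxoglutarate and are inhibited by succinate and fumarate, so 12 genes for enzymes that make or use these metabolites were examined. Of these, 2 were higher and 4 lower by limma, against 25.3% and 22.8% of all tested genes, and the median log2 fold change was -0.08. The largest falls were in IDH3A, a subunit of the mitochondrial isocitrate dehydrogenase that makes 2-oxoglutarate (31.5 and 34.7 RPKM in control, 25.5 and 23.3 RPKM in MYCN knockdown, log2 fold change -0.42), and SDHB, a subunit of succinate dehydrogenase (72.5 and 76.7 RPKM against 57.1 and 54.1 RPKM, log2 fold change -0.42). FH, which encodes fumarate hydratase, fell from 47.8 and 52.4 RPKM to 40.3 and 36.9 RPKM (log2 fold change -0.37), and did not pass after rescaling to the same total (-0.31, adjusted p = 0.0661 in limma). IDH2, the most abundant of the 12, was at 149.9 and 145.3 RPKM in control and at 167.8 and 173.0 RPKM in MYCN knockdown (log2 fold change 0.21, adjusted p = 0.0234 in limma), a call that was lost without any 1 sample (adjusted p from 0.0918 to 0.200 in limma) and with the replicate block (0.234).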
